A study of Homo sapiens with 6 samples.

Results

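The genes described here are the core enzymes and adaptors that write, copy and remove DNA methylation, followed in LNCaP cells with and without knockdown of the methyl-CpG reader MBD2. They were chosen by name as DNMT1, DNMT3A, DNMT3B, UHRF1, UHRF2, TET1, TET2, TET3, TDG and HELLS, and each had to have an array feature annotated with that 1 gene symbol. All 10 of 10 did, among 16704 genes measured in all. LNCaP is an androgen-responsive human prostate cancer line. The MBD2 knockdown group was 3 stable clones carrying a short hairpin RNA against MBD2, and the scrambled control group was 3 stable clones carrying a scrambled hairpin. Both groups were made in the siLentGene-2 vector with neomycin selection, so the controls share the vector and the selection. Each clone was measured on 1 Affymetrix human Gene ST array of cytoplasmic RNA. Whether the clones of a group arose independently is not given in the sample titles. Differences between clones and effects of the hairpin can be separated only as far as 3 clones a group allow.

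DNA methylation in mammals sits mostly on cytosines of CpG dinucleotides. DNMT3A and DNMT3B place it on unmethylated DNA, while DNMT1 copies it to the new strand after replication, guided by UHRF1, which recognises hemimethylated CpGs. HELLS, a chromatin remodeller also known as LSH, opens chromatin to this machinery. The TET enzymes oxidise methylcytosine, and the glycosylase TDG excises the oxidised bases so that base excision repair can restore cytosine. DNMT1, UHRF1 and HELLS are known as genes that proliferating cells express with DNA replication.

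All values are log2 expression as deposited, so a difference of 1 is a doubling. The array medians lay between 6.31 and 6.33 and the lower quartiles between 4.68 and 4.81. MBD2 stood at 7.68, 7.84 and 7.81 in knockdown clones 1, 2 and 3, against 8.73, 9.24 and 9.20 in control clones 1, 2 and 3, which leaves 41.2% of the control level (limma adjusted p = 0.111). The LNCaP markers KLK3, KLK2, HOXB13, KRT8 and KRT18 were measured at 8.03 or higher on every array. KLK3 itself differed widely between clones of 1 group, at 8.66, 10.3 and 10.4 in knockdown clones and 8.67, 10.1 and 8.48 in control clones. All 3 leukocyte markers and both endothelial markers lay at or under 4.70. Of the other cell types' markers, COL1A1 (fibroblast) was the brightest, at 7.33 ± 0.19 in knockdown and 7.09 ± 0.04 in control clones (mean ± SD, n = 3 each). The array of knockdown clone 1 stood apart from those of clones 2 and 3. The SD over genes of the difference between 2 arrays was 0.316 and 0.350 for clone 1 against clones 2 and 3. It was 0.185 between clones 2 and 3, and 0.310, 0.273 and 0.335 for clone 1 against control clones 1, 2 and 3. Values of clone 1 were also the least spread, with quartiles of 4.81 and 7.79 and an SD of 2.00. The other 5 arrays had lower quartiles of 4.68 to 4.72, upper quartiles of 7.82 to 7.87 and SDs of 2.05 to 2.07. The part of this in the differences of clone 1 was not tested.

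Across the 10 genes, 8 had a lower mean and 2 a higher mean in the knockdown clones, where 51.3% of all genes had a lower mean. Their median difference was -0.12 on the log2 scale, against -0.0043 over all genes. None of the 10 passed limma's test at an adjusted p under 0.05, as was the case for 0% of all 16704 genes. Their adjusted p lay between 0.404 and 0.940. At an unadjusted p under 0.05 DNMT1 and TET1 were lower, 2 of 10, against 5.45% of all genes, and 0 of 10 were higher, against 3.93%. The groups did not overlap for DNMT1 and TET1, 2 of 10 and both lower, against 8.87% of all genes that were lower without overlap. No member was higher without overlap, against 6.57% of all genes. The intervals given here are for single genes, are not adjusted for the number of genes and weight all arrays equally. For 9 of the 10 genes the 95% interval lay within 1.5-fold of the control level in either direction, and HELLS was the exception. Nearest to this bound were the lower limits of UHRF1 (68.4%) and of TET1 (68.5%), whose signal was dim.

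**Figure D1:**
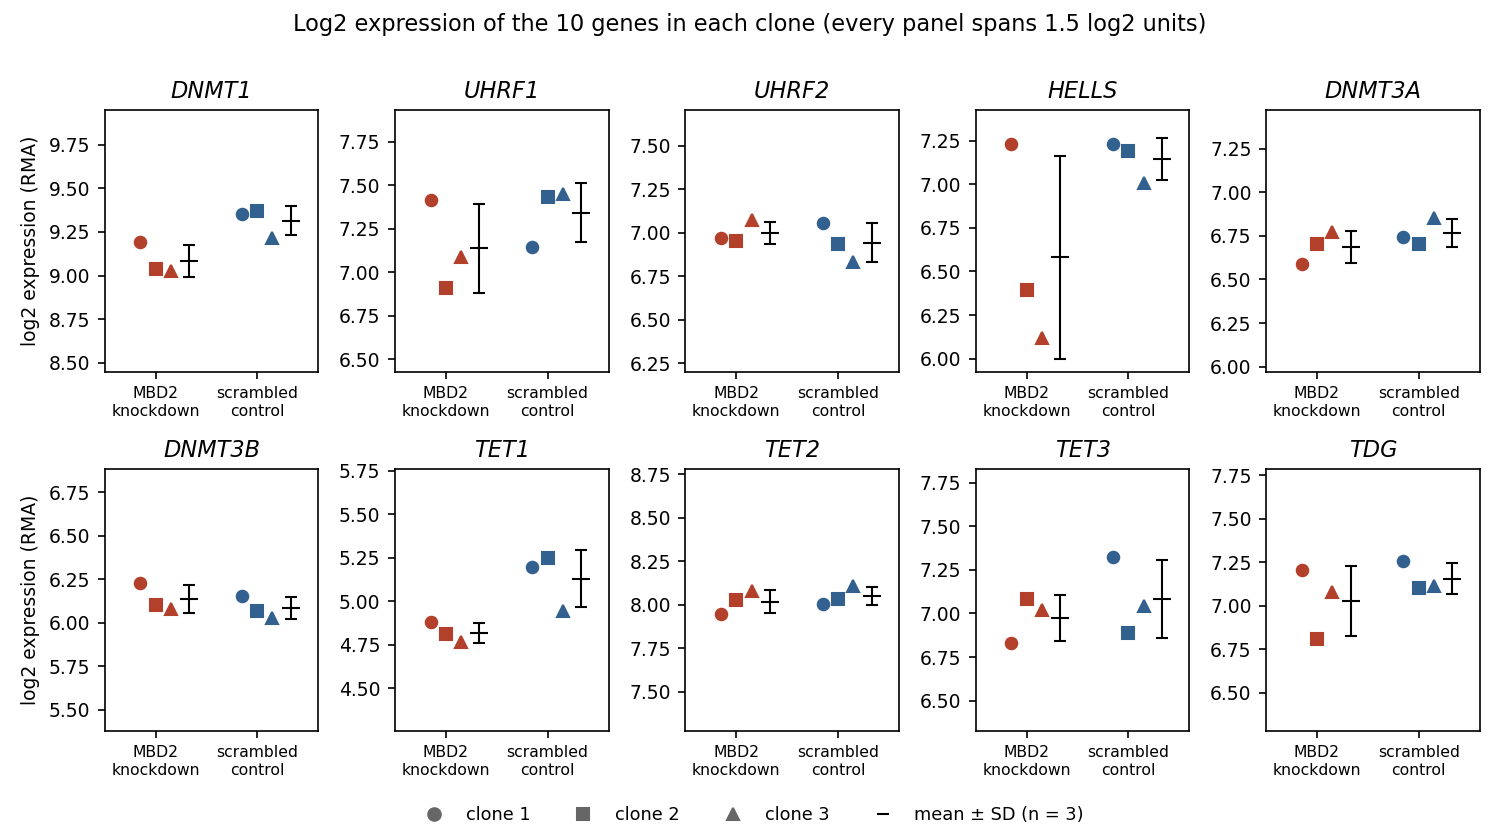
Log2 expression of the 10 genes (y axis, RMA values) in 3 MBD2 knockdown clones (red, left) and 3 scrambled control clones (blue, right), with mean ± SD beside the points; marker shapes number the clones. HELLS spans 1.12 log2 units among the knockdown clones, with clone 1 at the control level, while the knockdown values of DNMT1 and TET1 lie below all control values.

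Among the genes that maintain methylation, HELLS had the largest difference in means. HELLS measured 7.23 in knockdown clone 1, 6.39 in clone 2 and 6.12 in clone 3, against 7.23, 7.19 and 7.01 in control clones 1, 2 and 3. Knockdown clones 2 and 3 were thus below all controls, and clone 1 lay at the top of the control range. The means were 6.58 ± 0.58 in knockdown and 7.14 ± 0.12 in control clones (SD, n = 3 each). The log2 fold change was -0.56 with an SE of 0.26, which is 67.7% of the control level, with a 95% interval of 44.4% to 103%. HELLS did not pass (limma adjusted p = 0.567, exact permutation p = 0.4). Without knockdown clone 1 the log2 fold change was -0.89 and the adjusted p 0.0498, in a fit that calls 0.419% of genes and rests on the alike clones 2 and 3. Without clone 3 it was -0.33 (adjusted p = 0.803). With knockdown clones 2 and 3 averaged as 1 it was -0.40 (limma adjusted p = 0.816). With array weights, which weight clone 1 down, it was -0.77 (adjusted p = 0.0475), in a fit that calls 1.95% of genes. The range of the 3 knockdown clones in HELLS exceeded that of 98.7% of genes.

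The S phase genes varied along with HELLS. Their list, chosen with earlier results of these data known, held 24 measured genes, such as those of the MCM helicase and of nucleotide synthesis. Its mean deviated from the control mean by 0.06 in knockdown clone 1, -0.40 in clone 2 and -0.54 in clone 3, and by 0.01, 0.09 and -0.10 in control clones 1, 2 and 3. HELLS deviated by 0.09, -0.75 and -1.03 in knockdown clones 1, 2 and 3 and by 0.09, 0.05 and -0.14 in the controls. Both thus had clone 1 near the controls and clones 2 and 3 below them. In knockdown clones 2 and 3 all 24 S phase genes were below their control means, and 1 of the 24 deviated further down than HELLS in each. The share of all genes below their control means in single clones is not given here. The count of 24 is thus not read as a result about the list. The part of S phase expression in the HELLS difference was not tested, and in bulk RNA fewer cells in S phase and less RNA per cell cannot be told apart. In the 10 G2/M genes all 3 knockdown clones were lower, by 0.32, 0.46 and 0.55 on average (knockdown clones 1, 2 and 3), so clone 1 did not stand at the control level there.

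**Figure D2:**
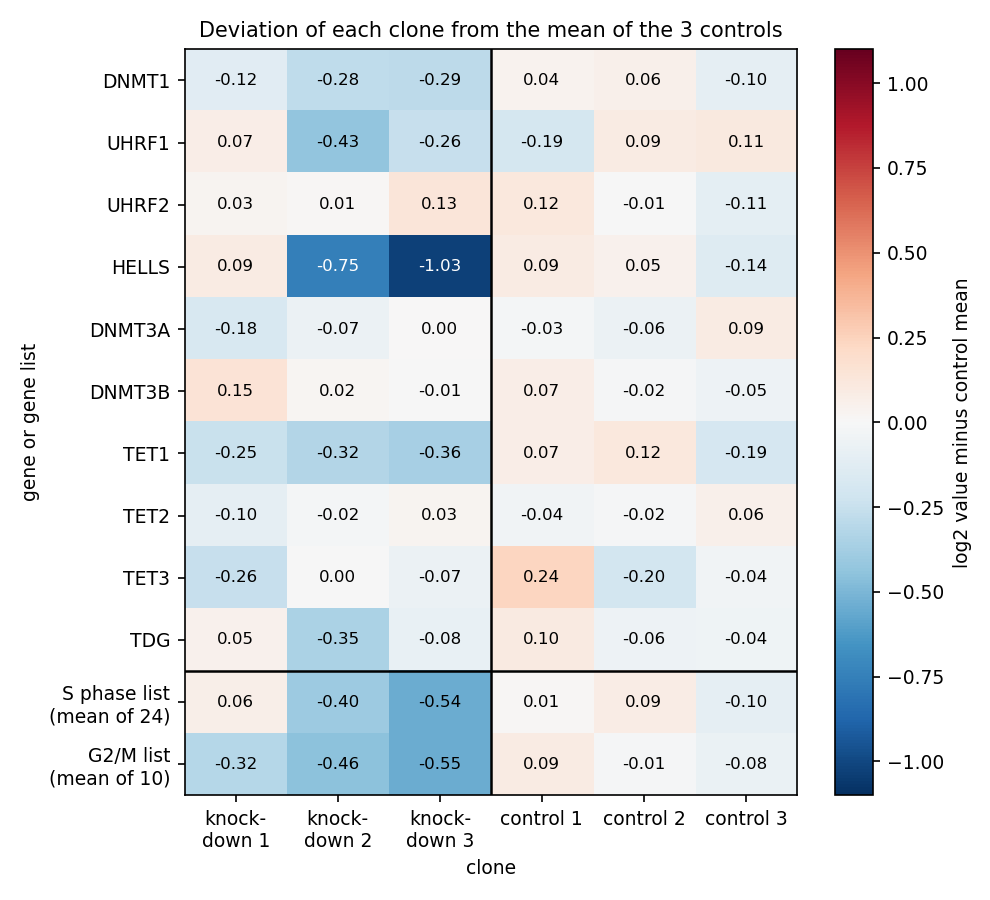
Deviation of each clone (columns, knockdown left of the line) from the mean of the 3 controls in log2 units, for the 10 genes and for the means of 24 S phase and 10 G2/M genes (rows). HELLS and the S phase list are near 0 in knockdown clone 1 and negative in clones 2 and 3. DNMT1, TET1 and the G2/M list are negative in all 3, as is TET3, which is -0.003 in clone 2.

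UHRF1, the reader of hemimethylated CpGs, also had knockdown clone 1 highest of the 3, with clone 2 and not clone 3 the lowest, and it had a low control. UHRF1 measured 7.41, 6.91 and 7.09 in knockdown clones 1, 2 and 3, against 7.15, 7.43 and 7.45 in control clones 1, 2 and 3. Clones 2 and 3 lay below all controls and clone 1 within them. The log2 fold change was -0.20 (SE 0.15), or 86.8% of the control level with a 95% interval of 68.4% to 110%, and its adjusted p in limma was 0.731. Without knockdown clone 1 it was -0.34 and without knockdown clone 2 -0.09, neither past the threshold. UHRF2, its paralogue, stood at 6.97, 6.95 and 7.07 in knockdown clones, against 7.06, 6.94 and 6.83 in control clones. The groups overlapped, with a log2 fold change of 0.06 and an interval of 90.1% to 120% of the control level.

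DNMT1, the maintenance methyltransferase, was lower in each knockdown clone than in any control, by a small margin. DNMT1 measured 9.19, 9.04 and 9.03 in knockdown clones 1, 2 and 3, against 9.35, 9.37 and 9.22 in control clones 1, 2 and 3. The lowest control lay 0.03 above the highest knockdown clone. The log2 fold change was -0.23 (SE 0.09), or 85.3% of the control level with a 95% interval of 74.1% to 98.3%. It did not pass in limma (adjusted p = 0.479), and the exact permutation test gave 0.1, the smallest p for 3 against 3. With each clone left out in turn the log2 fold change stayed between -0.28 and -0.20. After quantile normalization or cyclic loess the groups of DNMT1 overlapped.

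Promoters are shown for HELLS, UHRF1 and DNMT1, known as genes of replicating cells, and for TET1. All 4 were below every control in knockdown clones 2 and 3, TET1 and DNMT1 also in clone 1, so these values do not separate the 3 genes, which hold a motif match, from TET1, which holds none. E2F factors, which drive genes at the start of S phase, bind motifs of the kind TTNNCGC, taken here with each N as C or G. These 4 forms were searched on both strands in 300 bases, 250 before to 50 after the most upstream start site that the RefSeq promoter table (GRCh38.p14) lists for a gene, and no match in the 10 windows overlapped another. A match was found for 6 of the 10 genes, with 2 matches each for HELLS and UHRF1 and 1 each for DNMT1, UHRF2, TET3 and TDG. Of all 27305 promoters held there, 3550 had a match and 1.80% had at least 2, and of those of genes on the array 17.8% had a match. Printed 5′ to 3′ are 140 bases before to 10 after the start, with matches in capitals, for HELLS (chr10:94545648-94545797, plus strand), UHRF1 (chr19:4909361-4909510, plus strand), DNMT1 (chr19:10194944-10195093, minus strand) and, as a gene with no match, TET1 (chr10:68560197-68560346, plus strand).
HELLS: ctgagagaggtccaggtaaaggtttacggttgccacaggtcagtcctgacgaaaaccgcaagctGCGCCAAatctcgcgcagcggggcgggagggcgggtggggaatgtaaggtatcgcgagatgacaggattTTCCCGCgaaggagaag
UHRF1: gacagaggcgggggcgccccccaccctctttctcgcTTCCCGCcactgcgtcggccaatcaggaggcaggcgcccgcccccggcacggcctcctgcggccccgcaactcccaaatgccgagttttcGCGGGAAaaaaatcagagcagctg
DNMT1: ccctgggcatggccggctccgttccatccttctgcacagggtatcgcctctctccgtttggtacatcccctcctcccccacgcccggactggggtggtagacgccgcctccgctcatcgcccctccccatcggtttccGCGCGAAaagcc
TET1: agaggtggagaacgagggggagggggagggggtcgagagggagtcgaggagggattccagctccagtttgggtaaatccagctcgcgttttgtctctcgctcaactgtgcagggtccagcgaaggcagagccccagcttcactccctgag
In HELLS the 2 matches begin 76 and 7 bases before the start, in UHRF1 104 and 14 bases before it, and in DNMT1 the match begins 2 bases before it. A match is a description of letters, and binding was not measured here.

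CpG content also differed between these windows. The 300 bases held 22 CpGs in HELLS, 36 in UHRF1, 30 in DNMT1 and 10 in TET1, against a median of 13 over all promoters of the table and of 23 over those of genes on the array. TET3 had the most of the 10 genes, with 45, and DNMT3B the fewest, with 3. The start sites of the TET3, UHRF1 and DNMT3B windows lie 1279, 6421 and 17467 bases inside the annotated span of the gene, so the annotated 5′ ends of these 3 genes were not covered. Methylation of these promoters was not analysed here.

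The de novo methyltransferases showed no difference beyond the spread between clones. DNMT3A stood at 6.59, 6.70 and 6.77 in knockdown clones 1, 2 and 3, against 6.74, 6.70 and 6.86 in control clones. Clone 1 was below the controls, clone 2 was below them by under 0.01, and clone 3 lay within them. The log2 fold change of DNMT3A was -0.08 (SE 0.09), with a 95% interval of 82.2% to 109% of the control level. DNMT3B stood at 6.23, 6.10 and 6.08 in knockdown clones 1, 2 and 3, against 6.15, 6.07 and 6.03 in control clones. Its groups overlapped, with a log2 fold change of 0.05 (SE 0.08) and an interval of 90.9% to 119%. The 95% intervals of both genes lay within 1.5-fold of the control level, and neither passed in limma (adjusted p = 0.829 for DNMT3A and 0.883 for DNMT3B).

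Among the erasers TET1 was the 1 gene whose knockdown values all lay below the controls. TET1 measured 4.88, 4.81 and 4.77 in knockdown clones 1, 2 and 3, against 5.20, 5.25 and 4.94 in control clones 1, 2 and 3. The lowest control lay 0.06 above the highest knockdown clone, and the signal was dim, with knockdown values near the lower quartile of the arrays (4.68 to 4.81). TET1 was the 1 member among the dimmest 30% of genes. The log2 fold change was -0.31 (SE 0.10), or 80.7% of the control level, and its 95% interval ran from -0.55 to -0.07 on the log2 scale. TET1 ranked 688 of 16704 genes by p and did not pass in limma (adjusted p = 0.404, exact permutation p = 0.1). With each clone left out in turn the log2 fold change stayed between -0.40 and -0.25, and the 3 knockdown clones spanned 0.11.

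TET2 was the steadiest of the 10 genes. It stood at 7.95, 8.03 and 8.08 in knockdown clones 1, 2 and 3, against 8.01, 8.03 and 8.11 in control clones, with an SD over the 6 arrays of 0.056. The groups overlapped. Its log2 fold change was -0.03 (SE 0.08), with an interval of 86.3% to 111% of the control level, and the sign turned to 0.02 after quantile normalization or cyclic loess. A second TET2 feature, not used by the rule because it was dimmer, gave 0.01 (SE 0.09).

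TET3 stood at 6.83, 7.08 and 7.02 in knockdown clones 1, 2 and 3, against 7.32, 6.89 and 7.04 in control clones. The controls spread by 0.44, more than the knockdown clones, and the log2 fold change was -0.11 (SE 0.13), or 0.01 without control clone 1. TDG, the glycosylase that excises oxidised bases, stood at 7.20, 6.81 and 7.08 in knockdown clones, against 7.26, 7.10 and 7.11 in control clones. Clone 2 was the low one, and the log2 fold change was -0.13 (SE 0.12), with an interval of 75.9% to 111%. Without knockdown clone 2 it was -0.02 and without clone 1 -0.21. RefSeq lists pseudogenes of TDG, TET1, UHRF2 and DNMT3A, and whether the features' probes also match those is not given in the sources used here.

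**Figure D3:**
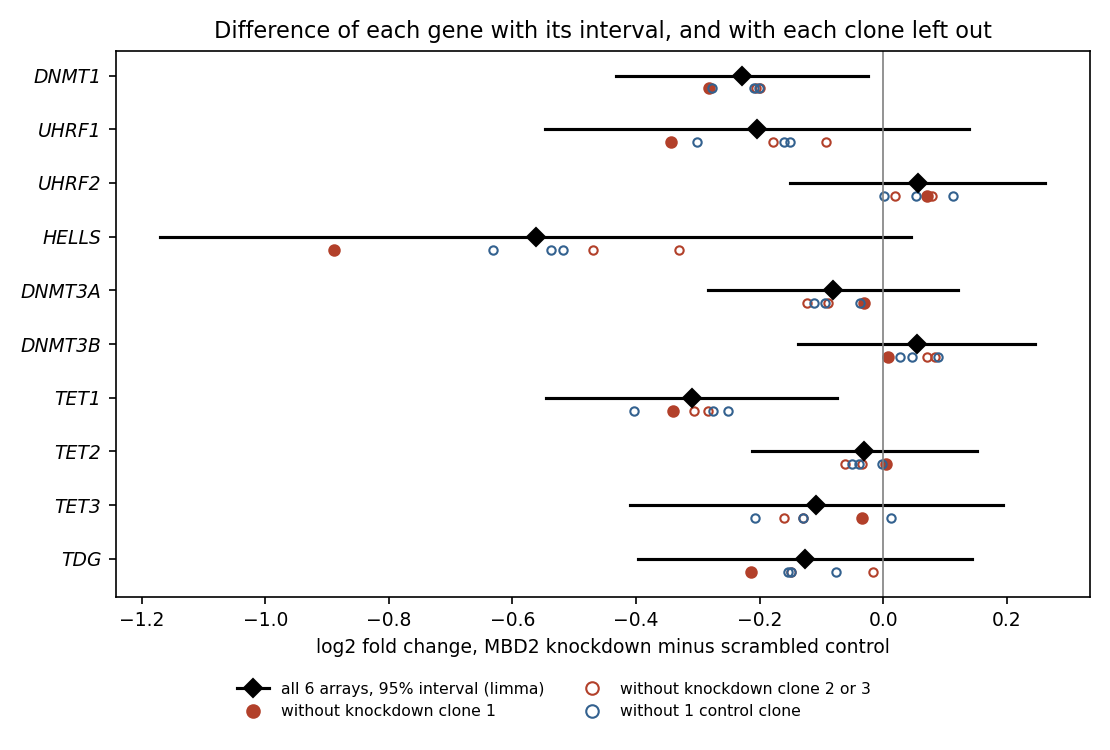
Log2 fold change of each gene, MBD2 knockdown minus scrambled control (x axis), with its 95% interval from limma over 6 arrays (black) and the value with each clone left out (circles). The HELLS value without knockdown clone 1 (-0.89) stands farthest from the value with all arrays (-0.56), and DNMT1 and TET1 stay negative throughout.

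By clone, the 10 genes left the control range in different combinations. In knockdown clone 1, DNMT1, DNMT3A, TET1, TET2 and TET3 lay below all 3 controls, 5 of 10, against 27.9% of all genes. In clone 2, DNMT1, UHRF1, HELLS, DNMT3A, TET1 and TDG did, 6 of 10, against 31.2%. In clone 3, DNMT1, UHRF1, HELLS, TET1 and TDG did, 5 of 10, against 34.3%. Clones 2 and 3 thus had UHRF1, HELLS and TDG below the controls, clone 1 had TET2 and TET3 below them, and DNMT1 and TET1 were low in each clone. Above all controls lay HELLS (by under 0.01) and DNMT3B in clone 1, 0 of the 10 in clone 2 and UHRF2 in clone 3, against 37.3%, 23.1% and 24.9% of all genes in clones 1, 2 and 3.

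Whether related genes differed unequally was asked with the log2 difference between them within each array, for 7 pairs. The groups did not overlap for DNMT1 minus DNMT3B, which was 2.95 ± 0.01 in knockdown and 3.23 ± 0.06 in control clones (mean ± SD, n = 3 each), a shift of -0.28. Its exact permutation p was 0.1, the smallest possible, and 0.467 after adjustment over the 7 pairs. The 2 features measure different genes, so the shift between groups is read here and not the level. The other pairs overlapped between groups. UHRF1 minus UHRF2 shifted by -0.26 and TET1 minus TET2 by -0.28 (exact permutation p = 0.2 for each), while DNMT3B minus DNMT3A shifted by 0.14 (exact permutation p = 0.5). TET1 minus TET3 shifted by -0.20, TET2 minus TET3 by 0.08 and DNMT1 minus UHRF1 by -0.02, with exact permutation p of 0.5, 0.9 and 0.9.

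The genes whose pattern over the 6 arrays was most like that of a member were found by the root mean square difference of centred log2 values, for the 3 members with the largest SD over arrays. For HELLS (SD 0.486) they were CDC45, a subunit of the replicative helicase, at 0.086, MOCOS, an enzyme of molybdenum cofactor maturation, at 0.090, and MYBL2, a transcription factor of the cell cycle, at 0.108. CDC45 stood at 7.77, 6.97 and 6.65 in knockdown clones 1, 2 and 3, against 7.63, 7.77 and 7.36 in control clones. Like HELLS, it had clone 1 with the controls and clones 2 and 3 below them. For UHRF1 (SD 0.224) they were MBD1, another methyl-CpG reader, at 0.029, ANKRD6 at 0.036 and BZW2 at 0.038. MBD1 stood at 7.45, 6.93 and 7.06 in knockdown clones 1, 2 and 3, against 7.13, 7.49 and 7.46 in control clones, so it shared the low control clone 1 with UHRF1. For TET1 (SD 0.202) they were MNS1 at 0.044, GGCT, an enzyme of glutathione breakdown, at 0.046, and NOPCHAP1 at 0.047. These likenesses are descriptions of 6 arrays.

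The wider pathway was followed in gene lists, of which 0 measured genes passed in limma over all genes. At an unadjusted p under 0.05, 3 maintenance partners, 2 repair genes, 6 S phase genes and 10 G2/M genes were lower, against 5.45% of all genes. Higher was 1 repair gene, against 3.93% of all genes, and 0 genes of the other 3 lists were either. PCNA is on both the maintenance and the S phase list and is counted in both. Over all genes 51.3% had a lower mean, beside which such counts in each list stand. Of the 14 measured partners of maintenance methylation, 10 had lower and 4 higher means in the knockdown group, and their median difference was -0.08. PCNA, the sliding clamp that DNMT1 binds, had -0.37, PCLAF, a PCNA-associated factor, had -0.52, and SUV39H1, an H3K9 methyltransferase, had -0.45. PCLAF stood at 7.62, 6.95 and 6.74 in knockdown clones 1, 2 and 3, against 7.53, 7.74 and 7.59 in control clones. Without knockdown clone 1 PCLAF passed (limma adjusted p = 0.0498), with the same adjusted p as HELLS, in a fit that calls 0.419% of genes. CDCA7, known as the activator of HELLS, is on this list and had -0.01 (chosen after its values were seen). Of the 9 regulators of de novo methylation and other methyltransferases, 8 had lower means, with a median of -0.13. DNMT3L, the inactive partner of the DNMT3 enzymes, had 0.16 at a dim level of 4.12 in knockdown and 3.96 in control clones. Its groups did not overlap, against 6.57% of all genes that were higher without overlap. The histone demethylases KDM1B and KDM2B had -0.13 and -0.14. These lists too were chosen with earlier results known.

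Of 15 measured genes of base excision repair and deamination, 9 had lower and 6 higher means, with a median of -0.0020. POLB, the polymerase of this repair pathway, stood at 7.23, 7.36 and 7.29 in knockdown clones 1, 2 and 3, against 7.72, 7.55 and 7.56 in control clones. Its groups did not overlap, and the log2 fold change was -0.32 (SE 0.09, limma adjusted p = 0.338). Over all genes 8.87% were lower and 6.57% higher without overlap. The glycosylases NEIL1 and NEIL3 had 0.43 and -0.37, each with overlap. In the list of TET cofactor supply, 2 of 6 measured genes had lower means, with a median of 0.11. IDH1, the cytoplasmic source of the TET cofactor 2-oxoglutarate, stood at 11.3, 11.3 and 11.6 in knockdown clones, all above 11.2 in each control, a log2 fold change of 0.16. IDH2, its mitochondrial counterpart, had -0.17 and D2HGDH, which breaks down D-2-hydroxyglutarate, had 0.18, each also without overlap. In methyl donor synthesis 5 of 10 measured genes had lower means with a median of 0.0019, and MAT1A, MTRR and BHMT had -0.21, 0.11 and 0.16. The groups of MAT1A did not overlap, while those of MTRR and BHMT did. The S phase list had 24 of 24 lower with a median of -0.25, with MCM6 at -0.35, RRM1 at -0.41 and RRM2 at -0.56. Its median was -0.43 without knockdown clone 1, -0.16 without clone 3 and -0.40 with array weights. Of the S phase genes 1 passed without knockdown clone 1, against 0.419% of all genes, and 3 with array weights, against 1.95%. Lower without overlap were 4 of the 24, against 8.87% of all genes. The G2/M list had 10 of 10 lower with a median of -0.43, with TOP2A at -0.43, KIF11 at -0.53 and TTK at -0.48. All 10 were lower without overlap, against 8.87% of all genes. Without knockdown clone 1, 2 of the 10 passed, against 0.419% of all genes.

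**Figure D4:**
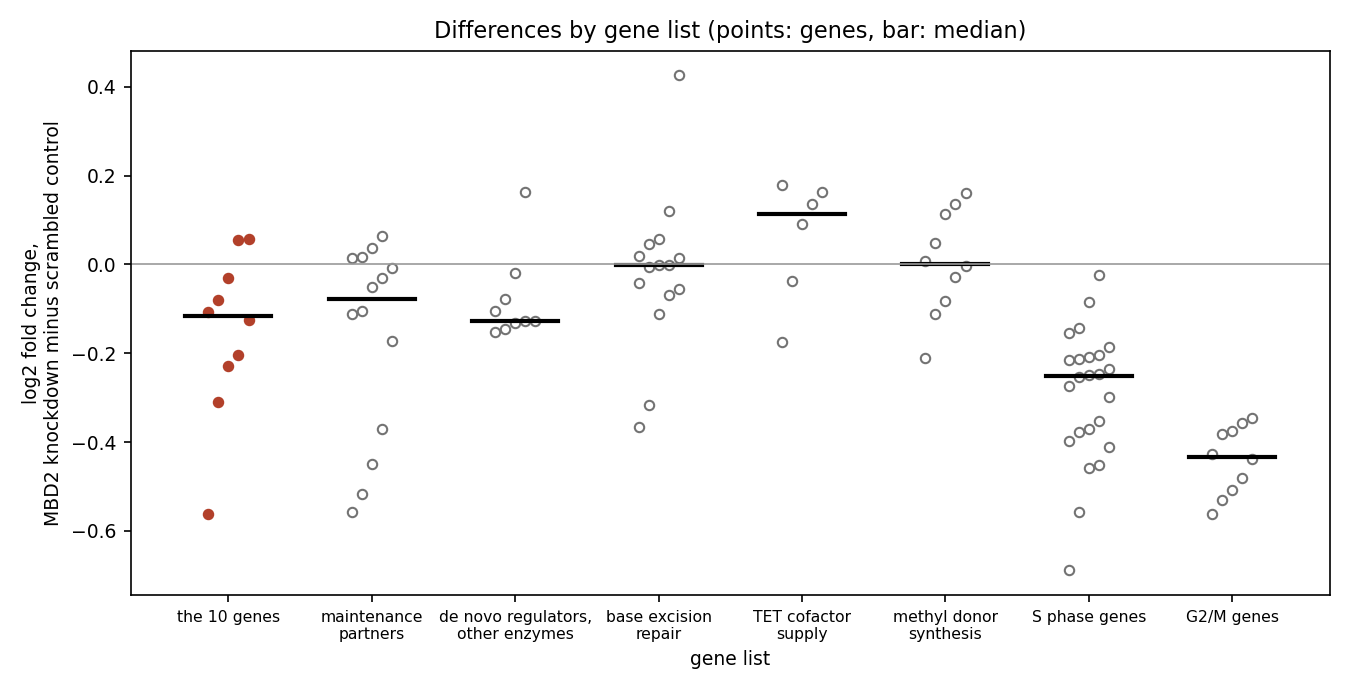
Log2 fold change, MBD2 knockdown minus scrambled control (y axis), of the 10 genes (filled, left) and of the genes of 7 lists (open), each point a gene and each bar a median. The medians are -0.12 for the 10 genes, -0.25 for the S phase list and -0.43 for the G2/M list, and between -0.13 and 0.11 for the other 5 lists.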

How the data were processed

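Cytoplasmic RNA of 6 stable LNCaP clones was hybridised to 1 array each. The deposited log2 values were made by the authors with RMA, and the R package oligo is named beside limma, per the submitters' processing notes; no version or filter was given in the sources used. The log2 scale was taken from the range of the values. They were used without further scaling. Of 19712 features, 17334 carry 1 gene symbol, 1521 several and 857 none listed here. The brightest feature was kept for each of 16704 genes.

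Groups came from the sample titles. The knockdown was compared with the control by limma 3.58.1 in R 4.3.3 (lmFit and eBayes, no covariates), with Benjamini-Hochberg adjustment over all genes and a threshold of 0.05. The fit was tested on simulated data. Exact permutation tests were two-sided over all splits of 6 arrays. Counts of list members were compared with all genes, with no test of lists. Alternatives were other scalings, a filter on dim genes, trend and robust moderation, array weights, a replicate block, other feature choices, leaving out each array, and knockdown clones 2 and 3 averaged. Named genes are the 10 members, MBD2, the 3 genes of smallest p per list and the 3 most like patterns, except where said. Members, lists and alternatives were chosen with earlier results of these data known. Python 3.11.15 with pandas 2.3.3 made the tables.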

Additional observations from a re-analysis of the deposited data

How the results depend on the processing

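With 22 results and 318 recomputed values, 294 kept direction and side of the threshold or stayed within the limits set for values and counts without a test. Over all alternatives DNMT1, HELLS, TET1, UHRF1, TDG and DNMT3A stayed lower and DNMT3B and UHRF2 higher, but small values moved by over 1.5 times: UHRF2 was 0.0018 without control clone 3 and 0.11 without control clone 1, DNMT3B was 0.0080 without knockdown clone 1, and DNMT3A was -0.031 without it. HELLS passed with array weights (log2 fold change -0.77, limma adjusted p = 0.0475, 1 member called) and without knockdown clone 1, and ranged from -0.89 to -0.33 with each clone left out; its adjusted p over all alternatives otherwise lay above 0.05. Array weights (0.252 for knockdown clone 1 and 3.43 for clone 2) called 325 genes. TET2 reversed to 0.019 after quantile normalization and after cyclic loess, and ranged from -0.062 to 0.00465 with each clone left out. TET3 reversed to 0.0076 with array weights and ranged from -0.21 to 0.012 with each clone left out, reversing without control clone 1. The cause was not tested. Members whose groups do not overlap numbered 1 (TET1) after quantile normalization or cyclic loess. They numbered 2 to 5 with each clone left out, where fewer samples leave fewer ways to overlap. The 5 without knockdown clone 1 were DNMT1, UHRF1, HELLS, TET1 and TDG. Without control clone 1 they were DNMT1, UHRF1, UHRF2, DNMT3B and TET1. The share of all genes without overlap is not given for these settings, so these counts are not read as a result about the members. Members past the threshold numbered 0 to 1 with each clone left out. Genes past it numbered 1 after quantile normalization or cyclic loess and 0 to 70 with each clone left out (70 without knockdown clone 1, 7 without control clone 1). MBD2 passed with array weights (-1.27) and ranged from -1.44 to -1.19 with each clone left out, passing without knockdown clone 1 or control clone 1. DNMT1 minus UHRF1 ranged from -0.13 to 0.092 and TET2 minus TET3 from -0.063 to 0.17 with each clone left out, TET1 minus TET3 from -0.31 to -0.044 (without control clone 2), DNMT3B minus DNMT3A from 0.039 (without knockdown clone 1) to 0.21 and UHRF1 minus UHRF2 from -0.42 to -0.15. The filter on dim genes left out TET1. The titles give replicate numbers without saying whether same-numbered clones were handled together. Same-numbered deviations correlated at -0.025, -0.19 and 0.17, and differently numbered ones at -0.17 to 0.22. With 3 clones a group these values cannot show whether handling was shared. With the replicate block 0 genes passed, and HELLS kept -0.56 (adjusted p = 0.479). The number of arrays limits precision, and TET1 is dim.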
